A study of Homo sapiens with 6 samples.

Results

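The genes described are 9 transcription factors and cofactors that specify lung epithelium and its lineages, NKX2-1, FOXA1, FOXA2, GATA6, SOX2, SOX9, HOPX, CEBPA and ETV5. They were matched by name in the table of 21293 genes, and all 9 had a row. The study profiled H2087-LCC cells, a latency competent cancer population selected in mice from the human lung adenocarcinoma line H2087, to follow how cells that form dormant metastases respond to TGFβ. Poly(A) RNA was sequenced from 3 groups of 2 libraries: cells kept for 3 days with SB505124 (SB), which inhibits the TGFβ type I receptor, cells given TGFβ for 3 days, and cells given TGFβ for 7 days. H2087-LCC is 1 selected population, and the study calls such library pairs technical replicates, so errors and p-values cover only the spread between these libraries. SB libraries exist for 3 days alone, and the contrast of 7 days of TGFβ with SB therefore also holds time in culture.

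As background, the lung bud forms where foregut endoderm switches on NKX2-1, a homeodomain factor that later drives surfactant and secretory genes. FOXA1 and FOXA2, winged-helix factors that can open closed chromatin, and GATA6, a zinc-finger factor, act with it throughout the endoderm. In the branching airway, SOX2 marks the proximal cells that become bronchi, whereas SOX9 and the ETS factor ETV5, a target of FGF signaling, mark the distal tip progenitors. HOPX, a small homeodomain protein that does not bind DNA itself, marks cells of the alveolar type 1 lineage, and CEBPA works in maturing alveolar and airway cells.

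Promoter sequences were available for 6 of the 9 members, in 8 windows of 250 bases before an annotated start, from a RefSeq table of GRCh38.p14 placed on GRCh37 by exact match. FOXA2, SOX9 and ETV5 had no entry. The windows of NKX2-1, HOPX and FOXA1 are shown because these genes fell under TGFβ and their windows hold the letters sought. The letters were TGTTTAC or TGTTTGC for FOXA factors, CTCAAG for NKX2-1, CAGGTG for the E-box that ZEB and SNAI repressors bind, and CAGACA for SMAD proteins, all on both strands, and they were chosen after the sequences were seen. Each sequence reads 5′ to 3′ on the minus strand, with bases of annotated untranslated exon left out except for up to 30 bases around a match, and capitals mark the matches.
NKX2-1, chr14:36989492-36989687: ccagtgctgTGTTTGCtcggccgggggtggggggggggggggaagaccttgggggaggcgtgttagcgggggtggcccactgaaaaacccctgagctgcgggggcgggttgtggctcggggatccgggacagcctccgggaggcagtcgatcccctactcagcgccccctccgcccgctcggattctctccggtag
NKX2-1, chr14:36988874-36988903: gaaacttaaaggTGTTTACcttgtcatcag
HOPX, chr4:57547463-57547492: tatttaagcaggctggcatcaGCAAACAca
HOPX, chr4:57522692-57522933: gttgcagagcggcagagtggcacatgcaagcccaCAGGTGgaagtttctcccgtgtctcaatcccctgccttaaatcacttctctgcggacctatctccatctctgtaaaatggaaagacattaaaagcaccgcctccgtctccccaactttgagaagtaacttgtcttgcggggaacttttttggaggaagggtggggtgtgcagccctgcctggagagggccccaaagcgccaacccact
FOXA1, chr14:38064455-38064704: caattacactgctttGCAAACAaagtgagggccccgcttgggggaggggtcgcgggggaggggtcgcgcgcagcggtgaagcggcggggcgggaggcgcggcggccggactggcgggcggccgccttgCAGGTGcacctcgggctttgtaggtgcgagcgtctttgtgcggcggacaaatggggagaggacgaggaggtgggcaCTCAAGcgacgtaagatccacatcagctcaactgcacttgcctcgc

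The FOXA letters were in both NKX2-1 windows, 1 HOPX window and the FOXA1 window, which makes 4 of the 8, against 6.10% of the 34943 promoters of the table. They lay 234 and 123 bases before the 2 NKX2-1 starts, 228 bases before the FOXA1 start and 2 bases before the HOPX start. The E-box was in the other HOPX window, 210 bases before the start, and in FOXA1, against 17.5% of all promoters. CTCAAG was in the FOXA1 window, 40 bases before the start, against 10.4%, and the SMAD letters, held by 13.6% of promoters, were in none of the 8. The windows of SOX2, GATA6 and CEBPA held none of the 4 motifs. As the letters were chosen after these windows were seen, and NKX2-1 and HOPX give 2 windows each, the shares are no test of enrichment. A match describes these letters in these windows and is not a measured binding site. The NKX2-1 window nearer the gene body is also listed as a promoter of SFTA3.

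The values are read counts that the authors normalized by library size, and the text calls them normalized counts. They summed to between 34306283 and 36340734 per library, and from the steps between low values 1 read was worth 0.896 to 1.10 normalized counts, or an estimated 32000000 to 40000000 reads per library. Each comparison used limma on log2(normalized count + 1) over the 14395 genes averaging at least 10, with Benjamini-Hochberg adjustment at 0.05 over all of them. With 2 libraries against 2, the smallest p of a two-sided exact permutation test on a single value is 0.333, and each p given comes from the fit across genes. The SB libraries differed from each other more than the other pairs did. Of the 11389 genes averaging at least 100, 86 differed over 2-fold between the SB libraries, 79 of them higher in SB library 2, against 2 such genes at 3 days and 4 at 7 days. Among the 8 members averaging at least 100, the gap touched SOX2, at 1.71-fold, and was at most 1.31-fold elsewhere. The summed epithelial markers EPCAM, CDH1, KRT7, KRT8, KRT18 and KRT19 lay between 88277 and 112407 in every library, but single markers moved. Of these 6, 3 were lower and 1 was higher than in SB at both times. KRT7 went from 5860 and 6183 in SB to 15440 and 18905 at 3 days and 13979 and 11230 at 7 days. KRT18 went from 47266 and 50793 in SB to 38965 and 41257, then 34714 and 31757. Its 3-day call was lost with no filter (adjusted p = 0.0698) or no trend. Markers of blood cells summed to 7 to 22, of neuroendocrine cells to 9 to 19 and of endothelium to 56 to 78. The 5 squamous and basal markers summed to 19 and 24 in SB, 51 and 39 at 3 days and 98 and 83 at 7 days, with TP63, the defining factor, at 1 to 8; the part of such cells in the results was not tested.

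Of the 8 members that passed the filter on low values, 6 were lower after 3 days of TGFβ than in SB and none was higher. This is 75.0% of the members tested, against 29% of all genes called in either direction (14% lower and 14.9% higher). After 7 days all 8 tested members differed from SB, 6 lower and 2 higher, against 54.5% of all genes (26.9% lower and 27.7% higher), though SOX9 missed the threshold in 4 of the alternative fits, which left 7. Between 7 and 3 days of TGFβ, 5 of the 8 differed, 3 higher and 2 lower at 7 days, against 33.2% of all genes (16.2% lower and 17% higher), and 4 to 6 did over the alternatives. The median log2 fold change of the 8 members was -1.37 at 3 days and -0.96 at 7 days against SB, where the median of all genes tested was -0.02 and -0.00081. It was 0.28 between 7 and 3 days, against 0.02 for all genes. Both comparisons with SB share the SB libraries. In a bulk library, fewer cells with a transcript and less of it per cell cannot be told apart.

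**Figure D1:**
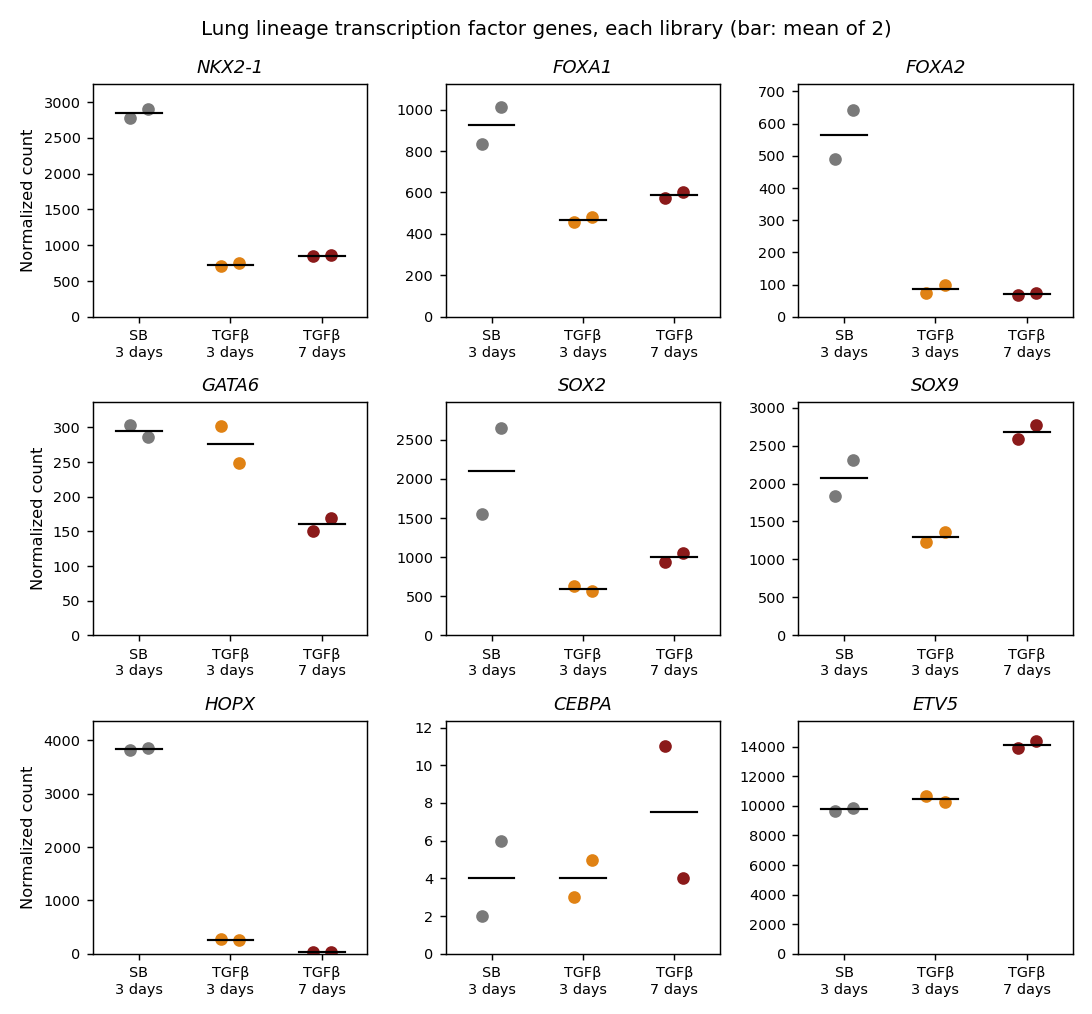
Normalized count (vertical axes, linear from 0, a scale of its own for each gene) of the 9 members in each of the 6 libraries, grouped by treatment, with points for libraries and bars for the mean of 2. NKX2-1, FOXA1, FOXA2, SOX2 and HOPX lie lower in all 4 TGFβ libraries than in both SB libraries, SOX9 dips at 3 days and lies above SB at 7 days, and ETV5 is highest at 7 days.

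Per kilobase of exon, the scale on which genes can be compared, the members spanned a wide range in SB. ETV5 was the most abundant, at 1693 ± 24.1 normalized counts per kilobase (SD, n = 2), followed by NKX2-1 at 899 ± 27.7 and SOX2 at 838 ± 311. NKX2-1 and SOX2 differed by less than the SD of SOX2. SOX9, at 527 ± 84.5 per kilobase, and HOPX, at 496 ± 3.20, were not separated beyond the spread of SOX9, nor was FOXA1, at 210 ± 28.5, from FOXA2, at 208 ± 39.5. GATA6 followed at 77.7 ± 3.35 per kilobase, and CEBPA was near the limit of detection at 1.54 ± 1.09.

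After 7 days of TGFβ the order on the same per-kilobase scale was ETV5 at 2446 ± 58.4, SOX9 at 682 ± 32.0, SOX2 at 396 ± 30.1, NKX2-1 at 270 ± 0.894, FOXA1 at 133 ± 4.17, GATA6 at 42.1 ± 3.35 and FOXA2 at 26.3 ± 1.82. HOPX, at 4.66 ± 0.366 per kilobase, had moved down to beside CEBPA, at 2.88 ± 1.90, a gap smaller than the SD of CEBPA. Lengths are the union of annotated exons, which for HOPX, at 7.73 kb, includes long alternative starts. The HOPX level per kilobase is thus a low estimate if shorter transcripts are used. For NKX2-1, 32.6% of the exon bases are shared with SFTA3. Its level and its place in the order are thus low estimates if reads that hit both genes were dropped.

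NKX2-1, the factor that sets lung identity, lies on chromosome 14 of GRCh37 from 36985597 to 36990354 on the minus strand. Its normalized counts were 2784 and 2908 in SB, 712 and 748 after 3 days of TGFβ and 853 and 857 after 7 days. All 4 TGFβ libraries were below both SB libraries. The SB mean was 3.90-fold the 3-day mean and 3.33-fold the 7-day mean. Against SB, NKX2-1 changed by -1.96 log2 units (standard error 0.10, adjusted p = 4.48e-08) with 3 days of TGFβ and by -1.73 (adjusted p = 5.07e-08) with 7. Both 7-day libraries lay above both 3-day libraries, yet the difference of 0.23 on the log2 scale missed the threshold (adjusted p = 0.0922).

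SFTA3, a lung transcript read from the same strand, shares 1033 of the 3165 exon bases of NKX2-1 (32.6%) on GRCh37, so the reads of the 2 genes are partly uncertain. Its normalized counts were 3460 and 3707 in SB, 839 and 778 at 3 days and 951 and 1045 at 7 days. The ratio of NKX2-1 to SFTA3 within a library stayed between 0.784 and 0.961 over the 6 libraries, and both genes fell together. NKX2-1-AS1, on the other strand, covers 12.7% of the NKX2-1 exon bases, and as the library kit does not keep strand, its reads cannot be told from those of NKX2-1 there. The antisense gene fell by 1.48 log2 units with 3 days of TGFβ (adjusted p = 0.00286).

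The region around NKX2-1 was then read within 500 kb on either side, a window chosen after the values were seen. Of the 6 neighbours tested, 5 were lower than in SB at 3 days and 5 at 7 days, SFTA3 and NKX2-1-AS1 included. The shares of all genes that were lower were 14% and 26.9%. MBIP, which encodes a MAP3K12-binding protein and lies 196 kb away, had normalized counts of 6968 and 6021 in SB, 2876 and 2648 at 3 days and 2569 and 2736 at 7 days. PAX9, a paired-box factor of pharyngeal endoderm that lies 136 kb away, changed by -0.59 and -1.08 log2 units at the early and the late time (adjusted p = 0.00200 and 9.30e-06). SLC25A21, a mitochondrial carrier gene 157 kb away, changed by -0.47 and -1.03 (adjusted p = 0.0295 and 9.59e-05). NKX2-8, the nearest paralogue, with normalized counts between 12 and 29, was not called at either time (adjusted p = 0.569 and 0.848). Windows of the same size around the other members were read against the 26.9% of all genes that were lower and the 27.7% that were higher than in SB at 7 days. Beside FOXA2, 2 of 2 neighbours tested were lower, beside SOX2 1 of 1 and beside FOXA1 1 of 3. The SOX2 neighbour, SOX2-OT (-0.56, adjusted p = 0.0463), missed the threshold with no filter (adjusted p = 0.0565) or the replicate block (adjusted p = 0.0677). It also missed with equal upper quartiles or only the 4 libraries compared, and was -0.44 without SB library 2. The FOXA1 neighbour that was lower, SLC25A21, lies 417 kb away and is also counted beside NKX2-1, as the windows overlap. Beside HOPX, 6 of 11 were lower and 2 higher, and beside CEBPA 1 of 7 was lower and 1 higher. Beside ETV5, 3 of 8 were higher and 1 lower, beside GATA6 2 of 3 were higher, and beside SOX9 0 of 2 were called.

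Of 11388 other genes averaging at least 100, the 3 whose centred log2 profiles over the 6 libraries lay closest to NKX2-1 were CLDN10 (distance 0.21), which encodes a claudin of ion-permeable tight junctions, KITLG (0.21), the ligand of the KIT receptor, and SFTA3 (0.24). Distances are Euclidean, in log2 units, and these neighbours describe likeness over 3 conditions and no more.

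FOXA1 is on chromosome 14 from 38058757 to 38065264, the chromosome that also holds NKX2-1, and FOXA2 on chromosome 20 from 22561636 to 22566093. FOXA1 normalized counts were 836 and 1014 in SB, 456 and 482 at 3 days and 575 and 601 at 7 days. FOXA2 normalized counts were 490 and 642 in SB, 75 and 99 at 3 days and 68 and 75 at 7 days. For both genes every TGFβ library was below both SB libraries, by a wide margin for FOXA2 and a narrower one for FOXA1.

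FOXA1 changed by -0.97 log2 units against SB with 3 days of TGFβ (standard error 0.13, adjusted p = 0.000120) and by -0.65 with 7 (adjusted p = 0.00103). FOXA2 changed by -2.69 (standard error 0.20, adjusted p = 1.41e-06) and by -2.96 (adjusted p = 2.61e-07), which left 12.6% of the SB mean at 7 days. The balance between them shifted. The ratio of FOXA1 to FOXA2 normalized counts was 1.71 and 1.58 in SB, 6.08 and 4.87 at 3 days and 8.46 and 8.01 at 7 days. The ranges of the 3 groups did not overlap. Neither gene passed the threshold between 7 and 3 days, at 0.33 for FOXA1 (adjusted p = 0.0664) and -0.27 for FOXA2 (adjusted p = 0.334). For FOXA1 the call turned, to adjusted p = 0.0380, when only the 4 TGFβ libraries were fitted. FOXA3, the remaining paralogue, was at 0 or 1 in every library.

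LINC00261, a long noncoding RNA that begins 2.36 kb from FOXA2, had normalized counts of 115 and 115 in SB, 33 and 33 at 3 days and 18 and 21 at 7 days. Against SB it changed by -1.77 log2 units early (adjusted p = 0.000236) and -2.50 late (adjusted p = 6.74e-06), and it shares no exon base with FOXA2. The profiles closest to FOXA2 were those of SLC27A2, a fatty acid transport protein (distance 0.47), SMPDL3B, a membrane phosphodiesterase (0.52), and ISM1, a secreted isthmin (0.54). Those closest to FOXA1 were LINC00263 (0.08), KIAA0753, a centriole protein (0.11), and KCTD6 (0.14).

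GATA6, on chromosome 18 from 19749550 to 19782491, was called at 7 days and not at 3. Normalized counts were 304 and 286 in SB, 302 and 249 at 3 days and 151 and 169 at 7 days. The 3-day libraries overlapped the SB libraries, and both 7-day libraries were below all others. The log2 fold change at 3 days was -0.10 (95% interval -0.45 to 0.24, adjusted p = 0.664), an interval that still holds a moderate change either way. At 7 days it was -0.88 against SB (standard error 0.16, adjusted p = 0.000613) and -0.78 against 3 days (adjusted p = 0.00362). GATA6-AS1, on the other strand, overlaps 2.47% of the GATA6 exon bases and was at 3 to 13 in all libraries. GATA2, a paralogue known from blood stem cells, changed by -0.77 against SB early (adjusted p = 0.0116) and by -1.06 late (adjusted p = 0.000736), whereas GATA4, a heart and gut factor with normalized counts between 61 and 98, was not called at either time. The early call of GATA2 was lost without SB library 2 (-0.54, adjusted p = 0.0831), without 3-day library 1 (-0.62, adjusted p = 0.0940) and with no filter (adjusted p = 0.0699). The closest profiles to GATA6 were HSP90AA1, the inducible HSP90 chaperone (distance 0.12), ZC3H8 (0.13) and WDR43, a ribosome biogenesis protein (0.14).

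SOX2, the proximal airway factor on chromosome 3 from 181429713 to 181432224, had normalized counts of 1552 and 2658 in SB, 626 and 569 at 3 days and 942 and 1049 at 7 days. Both SB libraries were above all TGFβ libraries, and the 7-day libraries lay between the other groups. The SB pair differed by 1.71-fold, a gap exceeded by 1.49% of genes. Against SB, SOX2 changed by -1.77 log2 units with 3 days of TGFβ (standard error 0.19, adjusted p = 3.15e-05) and by -1.03 with 7 (adjusted p = 0.000793). Without SB library 1 these were -2.15 and -1.42, and without SB library 2 they were -1.38 and -0.64, each past the threshold. Between 7 and 3 days SOX2 rose by 0.74 (adjusted p = 0.0132), which missed the threshold without the trend in the fit (adjusted p = 0.0928), with no filter (adjusted p = 0.112) and without 7-day library 2 (0.66, adjusted p = 0.0850).

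SOX2-OT, the noncoding transcript in whose intron SOX2 lies, shares no exon base with it and had normalized counts of 97 and 116 in SB, 39 and 42 at 3 days and 73 and 70 at 7 days. It followed the order of SOX2, falling by 1.37 log2 units in the first 3 days (adjusted p = 0.000592) and rising by 0.81 between 3 and 7 days (adjusted p = 0.0156). The later change of SOX2-OT missed the threshold without 3-day library 1 (0.75, adjusted p = 0.0827), without 7-day library 1 (0.78, adjusted p = 0.0933) and without 7-day library 2 (0.84, adjusted p = 0.0776). Closest in profile to SOX2 were CTSH, a cathepsin that processes surfactant protein (distance 0.37), EFNA1, an ephrin ligand (0.40), and STS, steroid sulfatase (0.42).

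SOX9, the distal tip factor on chromosome 17 from 70117161 to 70122557, had normalized counts of 1835 and 2305 in SB, 1233 and 1365 at 3 days and 2591 and 2769 at 7 days. The 3-day libraries were below both SB libraries and the 7-day libraries above them. SOX9 fell by 0.66 at 3 days (standard error 0.12, adjusted p = 0.00118) and rose by 1.05 between 3 and 7 days (adjusted p = 9.31e-05), a 2.06-fold difference of the means. The rise of 0.38 over SB at 7 days (adjusted p = 0.0159) was lost without SB library 1 (0.22, adjusted p = 0.129), without 7-day library 2 (0.33, adjusted p = 0.111), without the trend (adjusted p = 0.0700) and without the filter (adjusted p = 0.0674).

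The ratio of SOX9 to SOX2 normalized counts in the same library was 1.18 and 0.867 in SB, 1.97 and 2.40 at 3 days and 2.75 and 2.64 at 7 days. The ratio of SOX9 to NKX2-1 was 0.659 and 0.793 in SB, 1.73 and 1.82 at 3 days and 3.04 and 3.23 at 7 days. In both ratios the groups did not overlap, and each step was toward SOX9. The ratio of NKX2-1 to SOX2 varied less, from 0.817 to 1.79, and its SB and 3-day values overlapped.

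**Figure D2:**
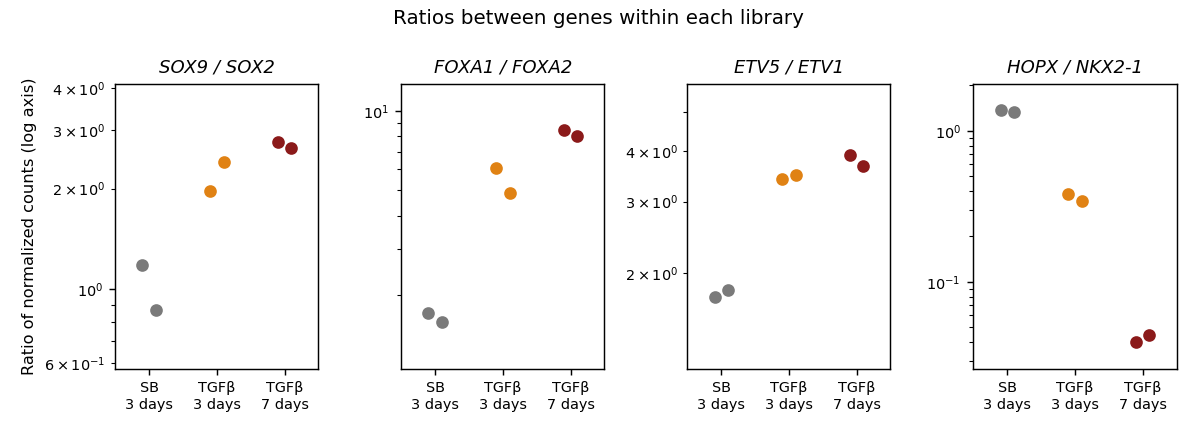
Ratios of normalized counts of 2 genes within each library (vertical axes, log scale, a range of its own for each panel), with 1 point per library in the 3 groups. SOX9 relative to SOX2, FOXA1 relative to FOXA2 and ETV5 relative to ETV1 are higher in every TGFβ library than in SB, and HOPX relative to NKX2-1 steps down from 1.37 and 1.33 in SB to 0.0399 and 0.0443 at 7 days.

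Of the 5 other SOX genes tested, 2 were lower than in SB at 3 days, and at 7 days 2 were higher and 1 lower. The shares of all genes were 14% lower at 3 days, and 27.7% higher and 26.9% lower at 7 days. SOX21, which is known to overlap SOX2 in the proximal airway, had normalized counts of 1019 and 1304 in SB, 250 and 294 at 3 days and 177 and 249 at 7 days, a log2 fold change of -2.08 (adjusted p = 4.97e-06) and then -2.45 (adjusted p = 5.65e-07). SOX4, a SOXC factor known from epithelial-mesenchymal transition, had 1629 and 2504 in SB, 1743 and 1690 at 3 days and 3403 and 3555 at 7 days. It was higher than at 3 days by 1.02 (adjusted p = 0.000682) and than SB by 0.78 (adjusted p = 0.00115), or by 0.47 without SB library 1. SOX12, a second SOXC factor, was 0.47 above SB at 7 days (adjusted p = 0.0212), a call lost without SB library 1 (0.30, adjusted p = 0.159), without 7-day library 1 (0.35, adjusted p = 0.174), with no filter (adjusted p = 0.0835) and with no trend (adjusted p = 0.0692).

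SOX9 is best known as the master factor of cartilage, and 12 genes it activates there were read beside it. Only 5 passed the filter, with 2 higher and 1 lower at 3 days and 3 higher at 7 days. Among all genes 14.9% were higher and 14% lower at 3 days, and 27.7% higher at 7 days. The collagen gene COL2A1, its defining cartilage target, was at 0 to 3 in every library. MATN3, a cartilage matrix protein gene, had normalized counts of 166 and 115 in SB, 492 and 439 at 3 days and 350 and 354 at 7 days. It rose by 1.74 at 3 days (adjusted p = 1.76e-05), when SOX9 was low. COL9A3 moved in the same direction as SOX9. It changed by -1.07 at 3 days (adjusted p = 0.0369), a call lost with no filter or no trend. Between 3 and 7 days it rose by 1.30 (adjusted p = 0.0141). ACAN went from 0 in both SB libraries to 12 and 14, then 45 and 28. COL11A2 went from 21 and 24 to 25 and 42, then 47 and 45. Both were higher than in SB at 7 days (adjusted p = 3.18e-06 and 0.0168), and COL9A2 was not called in any comparison. SOX9-AS1 shares no exon base with SOX9 and was not called in any comparison. The profiles closest to SOX9 were OTUB2, a deubiquitinase (distance 0.19), PSAP, the precursor of the lysosomal saposins (0.19), and KCNS3, a potassium channel subunit.

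HOPX, on chromosome 4 from 57514155 to 57548043, had the largest change of the 8 members tested. Its normalized counts were 3819 and 3854 in SB, 271 and 255 at 3 days and 34 and 38 at 7 days. The 3 groups stood apart, and each pair of libraries nearly coincided. The 3-day mean was 6.86% of the SB mean and the 7-day mean 0.938%, a 107-fold fall. In log2 units HOPX changed by -3.86 in the first 3 days (standard error 0.14, adjusted p = 2.90e-09), by -6.70 over 7 days (adjusted p = 1.66e-11) and by -2.84 between the TGFβ groups (adjusted p = 3.20e-07). Leaving out any 1 library kept the 7-day value between -6.78 and -6.62. Relative to NKX2-1 in the same library, HOPX went from 1.37 and 1.33 in SB to 0.381 and 0.341 at 3 days and 0.0399 and 0.0443 at 7 days. Its closest profiles were GPR110, an adhesion receptor (distance 0.76), ACOXL, an acyl-CoA oxidase-like protein (1.32), and SFTA1P, a surfactant-associated pseudogene (1.42). These lay farther from HOPX than the closest profiles of the other members lay from theirs.

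HOPX is a marker of the alveolar type 1 cell, and other genes of that cell moved both ways. Of the 7 that could be tested, 2 were higher and 2 lower than in SB at 7 days, and their median change was 0.12 log2 units. These counts are near the shares of all genes at 7 days, 27.7% higher and 26.9% lower. At 3 days 3 were higher and 2 lower, against 14.9% and 14% of all genes. With no filter 3 were higher and 1 lower at 3 days, and with no trend 2 were higher and 2 lower. SCEL, the sciellin gene of flat epithelia, fell by 2.96 (adjusted p = 3.84e-08), from normalized counts of 3948 and 5976 in SB to 614 and 630. RTKN2 rose by 0.67 (adjusted p = 0.000218) and EMP2, a membrane protein gene, by 0.42 (adjusted p = 0.00141). CAV1, the caveolin gene, had 8986 and 5109 in SB, 9268 and 8335 at 3 days and 3769 and 4049 at 7 days, and fell by 0.79 at 7 days (adjusted p = 0.00385). The CAV1 change was -0.39 without SB library 1 and -1.20 without SB library 2, and it missed the threshold with no filter (adjusted p = 0.0658) or no trend (adjusted p = 0.0539). AQP5 was at 12 and 34 in SB and at 0 in all 4 TGFβ libraries. The SB mean was at least 7.93-fold the 7-day level when 3 reads per library are taken as the floor. This bound leaves out the spread of the SB pair. AGER, a defining type 1 gene, was at 203 and 255 in SB, 122 and 162 at 3 days and 232 and 225 at 7 days. It fell by 0.69 at 3 days against SB (adjusted p = 0.0160) and rose by 0.70 between 3 and 7 days (adjusted p = 0.0145). PDPN was at 0 or 1 in all 6 libraries.

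CEBPA, on chromosome 19 from 33790840 to 33793440, was at 2 and 6 in SB, 3 and 5 at 3 days and 11 and 4 at 7 days. These values lie at a few reads per library, below the filter, and the groups overlap, so the gene was not tested. Its paralogues were present. CEBPD, an acute-phase factor, had normalized counts of 231 and 478 in SB, 94 and 90 at 3 days and 84 and 79 at 7 days, and fell by 2.02 at 7 days (adjusted p = 7.96e-05). CEBPB, a regulator of inflammatory genes, rose by 0.47 over SB at 7 days (adjusted p = 0.00639) and DDIT3, the stress-induced CHOP gene, fell by 0.45 (adjusted p = 0.00552). Without 7-day library 1 both of these calls were lost, at 0.35 for CEBPB (adjusted p = 0.0974) and -0.36 for DDIT3 (adjusted p = 0.0630). CEBPG, which lies 71.2 kb from CEBPA, was near constant, between 2039 and 2378.

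ETV5, the FGF-induced distal tip factor on chromosome 3 from 185764103 to 185828107, had normalized counts of 9677 and 9874 in SB, 10658 and 10259 at 3 days and 13883 and 14360 at 7 days. Every TGFβ library was above both SB libraries, though the 3-day difference of 0.10 on the log2 scale was not called (95% interval -0.07 to 0.26, adjusted p = 0.372). At 7 days ETV5 rose by 0.53 over SB (standard error 0.08, adjusted p = 0.000115) and by 0.43 over 3 days (adjusted p = 0.00156). DGKG, a kinase gene on the same strand, shares 2.84% of the ETV5 exon bases.

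ETV1 and ETV4 are the sister factors of the same ETS subfamily. ETV1 had normalized counts of 5558 and 5439 in SB, 3133 and 2932 at 3 days and 3552 and 3921 at 7 days, and changed against SB by -0.86 (adjusted p = 1.79e-05) and -0.56 (adjusted p = 0.000222). ETV4, with group means of 2036 in SB, 1798 at 3 days and 1885 at 7 days, was not called. The ratio of ETV5 to ETV1 was 1.74 and 1.82 in SB, 3.40 and 3.50 at 3 days and 3.91 and 3.66 at 7 days. Each TGFβ value exceeded both SB values.

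Genes that respond to FGF and ERK signaling, the pathway that feeds ETV5, moved in both directions. Of 15 tested, 5 were higher and 5 lower at 3 days, and 5 higher and 6 lower at 7 days. Of all genes, 14.9% were higher and 14% lower at 3 days, and 27.7% higher and 26.9% lower at 7 days. DUSP4, an ERK phosphatase gene, rose from 423 and 495 in SB to 723 and 816 at 3 days and 1590 and 1714 at 7 days, by 1.85 on the log2 scale (adjusted p = 1.80e-07). SPRY1, a receptor tyrosine kinase antagonist, fell from 1467 and 1306 to 312 and 311 at 7 days, by 2.15 (adjusted p = 5.47e-08). DUSP5, a nuclear ERK phosphatase gene, fell by 1.45 (adjusted p = 6.45e-08) and FOSL1, an AP-1 subunit gene, by 1.59 (adjusted p = 9.21e-06). The profiles closest to ETV5 were PEX13, a peroxisome protein, TRIQK and TUG1, a long noncoding RNA.

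**Figure D3:**
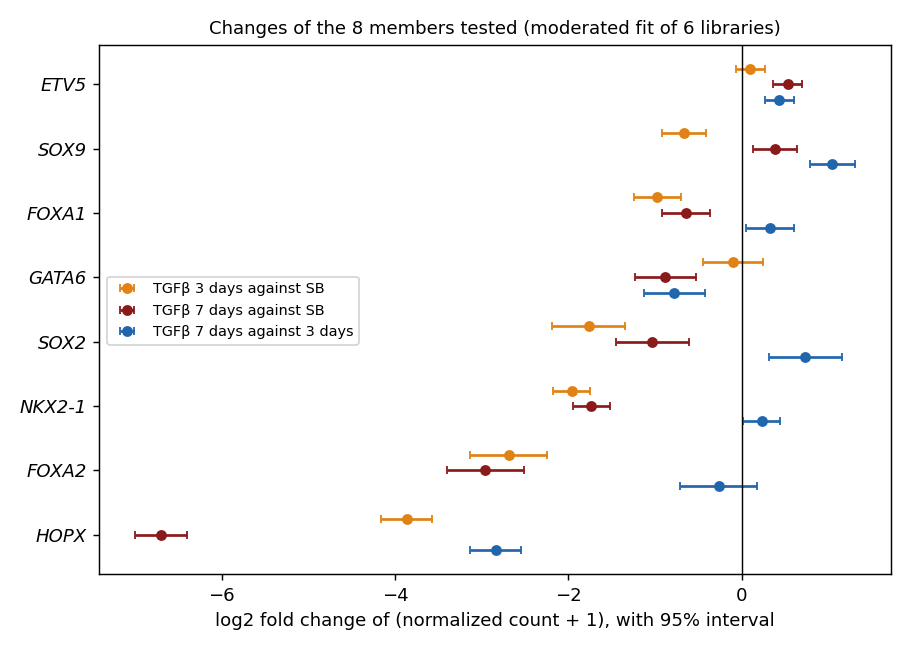
Log2 fold change of normalized count + 1 (horizontal axis) with its 95% interval from the moderated fit of 6 libraries, for the 8 members tested (rows) in 3 comparisons (colors). HOPX reaches -6.70 at 7 days, SOX9 lies on both sides of 0, and the intervals of GATA6 and ETV5 at 3 days include 0.

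NKX2-1 drives the secretory genes of the lung, and 12 of the 18 such genes in the table could be tested. Of these, 11 were lower than in SB at 3 days (median of all 12, -2.25 log2 units), and at 7 days 11 were lower and 1 higher (median -2.75). Of all genes, 14% were lower at 3 days, and 26.9% lower and 27.7% higher at 7 days. SFTPB, the surfactant protein B gene, had normalized counts of 1104 and 8273 in SB, 24 and 24 at 3 days and 22 and 19 at 7 days. SFTPA1, a surfactant protein A gene, had 311 and 1799 in SB and between 0 and 5 in the TGFβ libraries. Here the SB libraries stand far apart, by 7.49-fold for SFTPB, while their NKX2-1 counts differed by 1.04-fold. Against SB library 1 alone SFTPB changed by -5.69 log2 units over 7 days, and against SB library 2 alone by -8.59. SFTPA1 and SFTPA2 are near-identical copies, so reads may be lost or split between them.

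SCGB3A2, a secretoglobin gene of small airway cells, was at 414 and 642 in SB. It was at 15 and 11 at 3 days and 0 in both 7-day libraries. The SB mean was at least 182-fold the 7-day level with a floor of 3 reads per library. This bound leaves out the spread of the SB pair. LPCAT1, the enzyme that makes surfactant phosphatidylcholine, had 19014 and 20746 in SB, 4547 and 4519 at 3 days and 2821 and 2903 at 7 days. The defining alveolar type 2 gene SFTPC was at 0 or 1 in every library, and the club cell gene SCGB1A1 was at 0. The gene that was higher, CLDN18, a lung and stomach claudin, went from 13 and 21 in SB to 39 and 38 at 7 days.

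**Figure D4:**
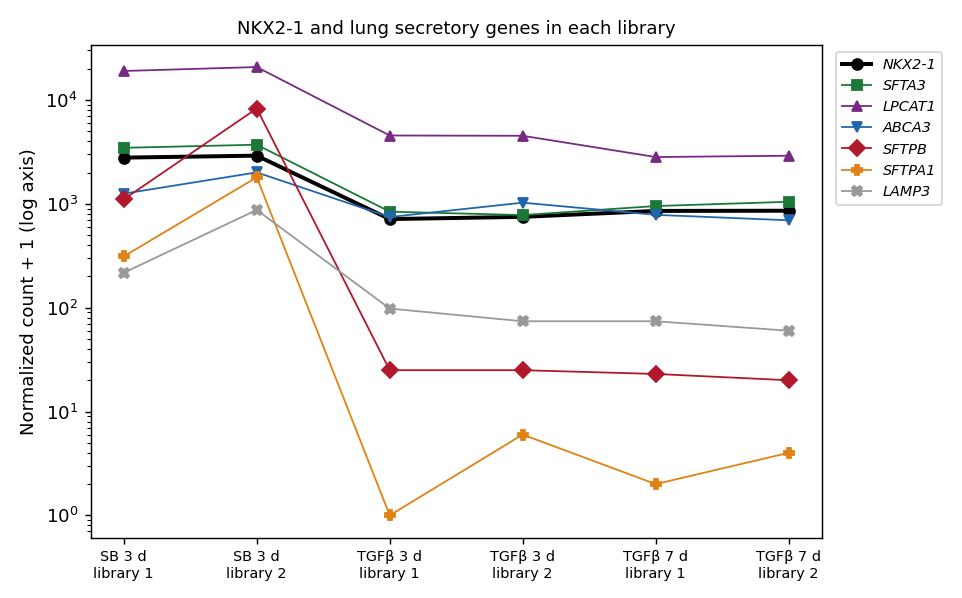
Normalized count + 1 (vertical axis, log scale) of NKX2-1 and 6 lung secretory genes in each of the 6 libraries (horizontal axis, lines only guide the eye between libraries). NKX2-1 and SFTA3 are level within the SB pair, SFTPB, SFTPA1 and LAMP3 are higher in SB library 2, and all 7 genes are lower in the TGFβ libraries.

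In lung adenocarcinoma models, loss of NKX2-1 is known to release gut and stomach genes, so these were read as well. The gut and liver factors HNF4G, PDX1, ONECUT2 and GATA4 were tested and not called in any of the 3 comparisons. HNF4A was at 0 to 12 and CDX2 at 0 or 1. Of 10 stomach and gut products only TFF3 passed the filter, at 33 to 49 in all libraries, and it was not called.

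Other factors of the airway epithelium split evenly at 7 days, with 6 of 14 tested higher than in SB and 6 lower. All genes also split nearly evenly there, at 27.7% higher and 26.9% lower. Those lower included ELF3, an ETS factor of differentiated epithelium, with normalized counts of 1359 and 4388 in SB, 66 and 71 at 3 days and 124 and 118 at 7 days. FOXJ1, the regulator of ciliated cells, fell by 1.64 at 7 days (adjusted p = 7.51e-05), and IRX5, an Iroquois factor of the embryonic lung, by 1.29 (adjusted p = 0.000304). Among those higher, ID2, a helix-loop-helix inhibitor known from the distal tip, went from 65 and 38 in SB to 149 and 141 and then 308 and 279, a rise of 2.53 at 7 days (adjusted p = 3.69e-06). Beside these, the epithelial adhesion gene CDH1 was at 371 and 635 in SB, 28 and 24 at 3 days and 10 and 9 at 7 days, and EPCAM fell by 1.62 over 7 days, while the keratin gene KRT8 stayed between 33341 and 42692.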

How the data were processed

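The authors mapped read pairs from poly(A) RNA libraries, made with a kit that does not mark strand, to hg19 with STAR, counted uniquely mapped reads per gene with HTSeq (0.6.1p1 in the submitters' processing notes) and scaled the counts to library size. Deposited values, recorded under the unit score, are these normalized counts as whole numbers; they cannot be returned to reads, so the count-based test of the study was not used. Depth covers counting error only. After a log2(value + 1) transform, limma 3.58.1 (R 4.3.3) was run on the 14395 genes whose mean reached 10 (empirical Bayes with a trend, group as the only term, 6 libraries, 3 residual degrees of freedom), adjusted by Benjamini-Hochberg at 0.05 for each comparison. The members and lists were chosen with earlier results of these data known. Named list genes were up to 4 per list, called at 7 days against SB with the largest change and a mean of at least 50, beside locus neighbours and the 3 nearest profiles of each member. Genes named beyond these, and genes given as absent or near constant, were chosen after their values were seen. The former include AQP5, AGER, PDPN, LPCAT1, ETV1, ETV4, CLDN18, PAX9, SLC25A21, ACAN, COL9A3 and COL11A2. Alternatives were pseudocounts, filters, scalings, the trend, the libraries fitted, a replicate block and each library left out. Simulated data for 7 days against SB held 14388 tested genes, of which 200 were changed. There 197 of the changed genes and 14 unchanged genes were called. In the measured libraries 54.5% of genes were called in this comparison, so the simulated counts give no error rate for it. Exons and positions are from GENCODE on GRCh37; the annotation the authors counted on is not given in the sources used here. Figures used matplotlib 3.10.9.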

Additional observations from a re-analysis of the deposited data

Results flagged for a closer look

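Among the members and the genes named from the lists, 2 lay on opposite sides of SB at the 2 times. SOX9 was below both SB libraries at 3 days and above both at 7 days, and the test of 7 days against 3 days gave a log2 difference of 1.05 (limma, adjusted p = 9.31e-05). KLF4, a Krüppel-like factor of differentiating epithelium, did the reverse, with normalized counts of 2501 and 2323 in SB, 2946 and 3003 at 3 days and 2046 and 1896 at 7 days. Its difference between 7 and 3 days was -0.59 (adjusted p = 0.000688). It stood in a list of pluripotency genes read beside SOX2, of which 3 could be tested and 1, KLF4 itself, was lower than in SB at 7 days (-0.29, adjusted p = 0.0171, a call lost without SB library 1, at -0.24, without 7-day library 2, at -0.24, and with no trend), while NANOG was at 0 in every library. The KLF4 difference from SB at 3 days, 0.30, also missed the threshold without SB library 2, without either 3-day library, with no trend and with the replicate block. With 2 libraries per group, no single library was tested as outlying.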

How the results depend on the processing

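The members called at 3 days against SB numbered 6 under every alternative run. At 7 days against SB they numbered 7 to 8 and between 7 and 3 days 4 to 6, and with the replicate block the counts were 6, 8 and 5. The replicate numbers share no culture or day in the labels, and deviations of same-numbered libraries correlated at 0.21 (SB and 3 days), -0.13 (SB and 7 days) and -0.65 (3 and 7 days), so the block was not taken as a pairing. Without the filter, or without the trend, SOX9 at 7 days against SB kept 0.38 but missed the threshold, and SOX2 between 7 and 3 days likewise at 0.74. FOXA1 between 7 and 3 days, at 0.33, passed when only the TGFβ libraries were fitted or either SB library was left out. Leaving out 1 library gave 0.22 to 0.55 for SOX9 at 7 days against SB, 0.66 to 0.81 for SOX2 and 0.29 to 0.37 for FOXA1 between 7 and 3 days, and -0.243 to 0.0344 for GATA6 at 3 days against SB. Genes called at 3 days against SB numbered 2609 to 3877 with 1 library left out. Between 7 and 3 days they numbered 3042 without the filter, 3122 without the trend and 2314 to 5554 with 1 library left out.

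Other signs that turned were of changes not called with all libraries. At 3 days against SB, leaving out 1 library gave -0.0320 to 0.783 for CAV1, -0.190 to 0.0985 for DDIT3, -0.423 to 0.264 for FOSL1, -0.262 to 0.0907 for SOX12 and -0.545 to 0.0753 for SOX4. Between 7 and 3 days it gave -0.117 to 0.00173 for MBIP, -1.08 to 1.5 for SFTPA1 (-0.0294 with a pseudocount of 5) and -2 to 0 for SFTPA2. The cause was not tested. Depth limits CEBPA, SFTPA1 and SFTPA2 at a few reads per library.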
